A study of Arabidopsis thaliana with 6 samples.

Results

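Dividing plant cells switch on a set of genes for spindle assembly, chromosome condensation, cell plate formation and packaging of new DNA. The 6 described here are the Aurora kinase genes AUR1 and AUR2, the kinesin gene KINESIN-12B, the topoisomerase gene TOPII, the histone H2B gene HTB11 and the HMG-box gene 3xHMG-box2. Each was taken as the probe set that the array annotation pairs with that gene alone, which gave 1 probe set per gene, 6 of the 22746 tested probe sets of the arrays and 6 of 13356 named genes. The 6 genes were chosen by their intensities on these same arrays, KINESIN-12B, TOPII, HTB11 and 3xHMG-box2 for a low level in miR172a against vector, and AUR1 and AUR2 for their difference between the overexpressing lines. Their values in those contrasts are therefore given as a description, and where calls among the 6 are counted there, the count restates the choice and tests nothing.

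Transcripts were measured on 6 one-colour arrays of vegetative shoot apices of Arabidopsis thaliana, from plants grown for 7 days in short days, 2 arrays to a group. The groups were plants overexpressing miR164b, plants overexpressing miR172a, and plants with the empty plasmid pML_Bart (vector), the overexpressors in Col-0 and the vector plants in Columbia. The sources used here do not state which promoter drives the transgenes, how many independent lines were used or how many plants made up a sample. Nor do they say that replicate arrays come from separate plants, so the spread behind the p-values may be technical.

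Aurora kinases are serine/threonine kinases that act on the mitotic spindle and chromosomes, and the products of AUR1 and AUR2 are also found at the forming cell plate. Plant cells divide by building that plate inside the phragmoplast, an array of microtubules in whose midzone kinesin-12 motors are found. Topoisomerase II passes 1 DNA duplex through another and so frees sister chromatids, H2B is a core histone of the nucleosome, and 3xHMG-box proteins bind condensed chromosomes during mitosis. Because such transcripts are concentrated in dividing cells, and whole apices were sampled, fewer dividing cells and less RNA in each of them cannot be told apart in these values.

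The deposited values are linear intensities scaled to a common trimmed mean of 200 per array, with medians between 85.3 and 92.2. The labels could be checked only in part. The miR172 target gene SNZ read 236.4 and 209.8 on the arrays labelled miR172a against 125.9 and 107.4 on the vector arrays (a log2 difference of 0.85, at an adjusted p of 0.017), which is opposite to a lowered target transcript, so every direction below rests on the labels. SMZ, another miR172 target gene, read 170.6 and 177.4 in miR172a and 162.9 and 157.9 in vector (log2 0.11, adjusted p = 0.506). The arrays measure transcripts and not proteins, so SNZ and SMZ cannot settle whether the labels are right. No target gene of miR164 was examined. Intensities of the 25S rRNA control were 443.2 and 528.5 on the miR164b arrays, 355.4 and 3462.2 on arrays 1 and 2 labelled miR172a, and 4069.7 and 4093.3 on the vector arrays. The 3′ to 5′ ratio of the actin control was 1.96 and 2.11 in miR164b, 2.25 and 3.05 in miR172a, and close to 3 in vector (2.94 on array 2). Of the tissue marker lists, 4 of 26 shoot meristem and boundary symbols were measured under a name, and their summed intensity was 173.3 to 206.3 in miR164b, 199.1 to 228.6 in miR172a and 188.3 to 204.2 in vector. The stem cell gene CLV3 read 64.6 and 82.4 in miR164b, 50.9 and 44.9 in miR172a, and 59.7 and 42.5 in vector. The meristem gene UFO read 22.8 and 35 in miR164b, 22.8 and 12.5 in miR172a, and 25.9 and 32.1 in vector. Both had a higher mean in miR164b than in miR172a, the side of the 6 genes (log2 0.48 and 0.42, adjusted p = 0.152 and 0.283). The meristem genes STM and WUS had no named probe set. LAS, a gene of axillary meristem formation, and FD, the gene of a bZIP factor of the shoot apex, stood higher in miR172a than in miR164b, the opposite side to the 6 genes. LAS read 37.6 and 44.3 in miR164b, 63.9 and 65.8 in miR172a, and 60.7 and 60.2 in vector, with a log2 difference between the lines of -0.51 (adjusted p = 0.034). FD read 48.3 and 44.6 in miR164b, 91.0 and 75.9 in miR172a, and 57.9 and 53.5 in vector, with a log2 difference of -0.67 between the lines (adjusted p = 0.024) and of 0.47 for miR172a against vector (adjusted p = 0.067). Both calls between the lines were lost when only the 4 arrays of the lines were fitted. That of LAS was also lost with median centring and with quantile normalization. The 2 measured leaf genes, PSAE-1 and RCA, summed to 7242 and 8323.8 in miR164b, 7804 and 8629.2 in miR172a and 8623.2 and 7794.3 in vector. The 3 measured root genes, of 18 symbols listed, summed to 4163 and 4496.2 in miR164b, 3413.4 and 3376.4 in miR172a and 4066.5 and 4110.5 in vector. Nearly all of that sum was PYK10, a beta-glucosidase gene of roots, which read 3380.8 and 3344.2 on the arrays labelled miR172a and 4008.1 and 4082.4 on the vector arrays (log2 -0.27, adjusted p = 0.14). The root hair expansin gene EXPA7 was at 33.1 on vector array 1 and at 5.2 or below on the other 5, and EXPA18, of the same family, read 27.4 and 28.2 in miR172a and 25.3 and 23.3 in vector (log2 0.12, adjusted p = 0.671). None of CLV3, UFO, LAS, FD, PYK10 and the 25S control was tested for a part in the values below.

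The 6 genes were lowest on the arrays labelled miR172a. Both miR172a arrays read below both vector arrays and below both miR164b arrays for each of the 6. Against vector, the log2 differences of miR172a ran from -0.77 to -0.30 with a median of -0.48, where the median of all probe sets was -0.0017. Separated groups with miR172a below vector were found for 23.8% of all probe sets, and an adjusted p under 0.05 with a lower level for 2.64%. Of the 6 genes 4 had such a call, which is how those 4 were chosen. When only the 4 miR172a and vector arrays were fitted, 0 of them had it.

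**Figure D1:**
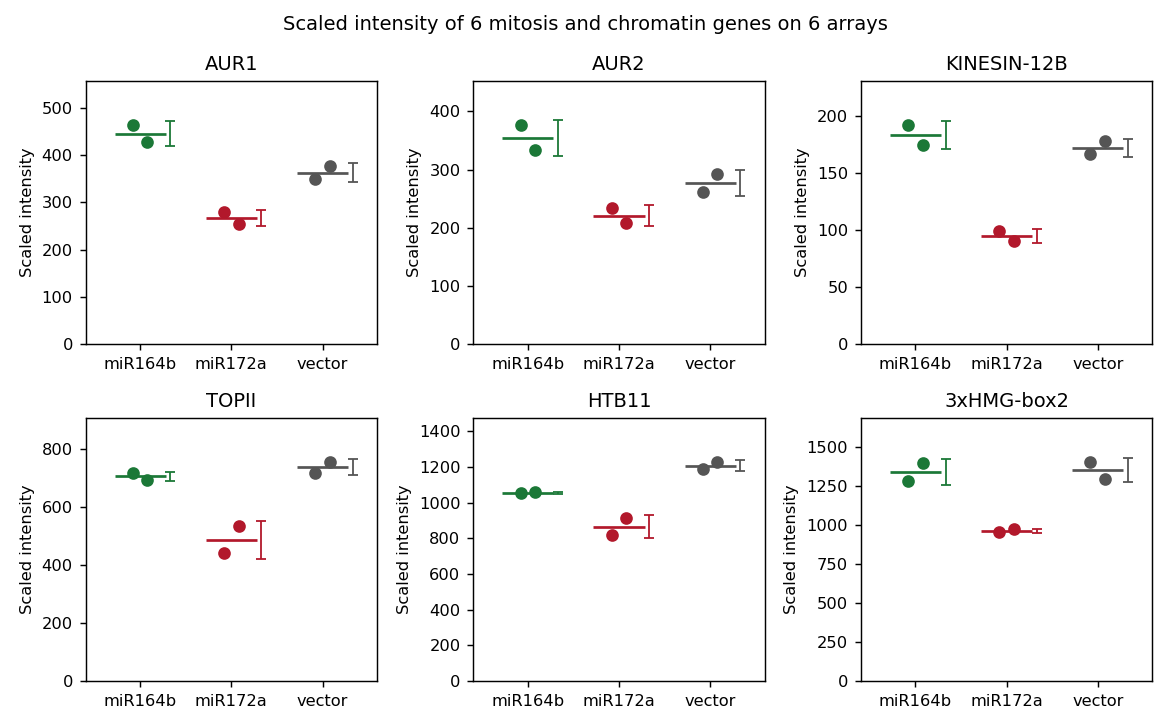
Scaled intensity (linear axis from 0) of each of the 6 genes on each array, with groups miR164b, miR172a and vector from left to right. Points are arrays, horizontal bars are group means and the side bars are ± SD (n = 2). In every panel both miR172a points lie below all other points, and the miR164b points lie above the vector points for AUR1 and AUR2.

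Among the mitotic kinases, AUR1 (AT4G32830) read 463.9 and 427.5 on the miR164b arrays, 278.7 and 255.0 on the arrays labelled miR172a, and 348.9 and 377.4 on the vector arrays. The 3 groups did not overlap, with miR164b highest and miR172a lowest. The log2 difference of miR172a from vector was -0.42 ± 0.10 (SE), and that of miR164b from miR172a 0.71 ± 0.10. AUR2 (AT2G25880), the closest relative of AUR1, read 376.6 and 333.0 in miR164b, 233.2 and 208.8 in miR172a, and 260.6 and 292.7 in vector. Its groups stood in the same order without overlap, and its ranking of the 6 arrays was that of AUR1. The AUR2 differences were -0.30 ± 0.11 for miR172a against vector and 0.65 ± 0.11 for miR164b against miR172a. The smallest gap between neighbouring groups was that between miR172a array 1 and vector array 1, at 233.2 against 260.6, which is smaller than the difference of the 2 AUR2 values within miR164b.

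KINESIN-12B (AT3G23670), whose product is a motor of the phragmoplast midzone, read 192.5 and 175.2 in miR164b, 99.4 and 90.4 in miR172a, and 167.0 and 178.2 in vector. Both miR172a arrays were far below the rest, and the miR164b and vector arrays overlapped. Its mean in miR172a was 55.0% of the vector mean, at 94.9 ± 6.4 against 173 ± 7.9 (SD, n = 2 each). This was the lowest such share among the 6 genes, and the log2 difference was -0.77 ± 0.09. The difference between the lines was 0.85 ± 0.09, with a mean of 184 ± 12.2 in miR164b.

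TOPII (AT3G23890) read 717.4 and 694.6 in miR164b, 441.6 and 533.2 in miR172a, and 718.5 and 757.2 in vector. The miR172a arrays were lowest but differed from each other by a ratio of 1.21, the widest gap between replicates of any of the 6 genes in any group. The miR172a mean was 66.1% of the vector mean, with a log2 difference of -0.59 ± 0.11 that was -0.72 without miR172a array 2 and -0.46 without miR172a array 1. On chromosome 3 the loci of KINESIN-12B and TOPII have 23 protein-coding loci between them in the TAIR10.1 gene table.

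HTB11 (AT3G46030), 1 of several genes for histone H2B, read 1052.0 and 1060.0 in miR164b, 818.9 and 911.0 in miR172a, and 1185.9 and 1229.7 in vector. Here vector was highest, miR164b intermediate and miR172a lowest, without overlap. The log2 difference of miR172a from vector was -0.48 ± 0.09, and that between the lines, at 0.29 ± 0.09, was the smallest of the 6. 3xHMG-box2 (AT4G23800) read 1281.8 and 1400.4 in miR164b, 953.6 and 973.1 in miR172a, and 1406.2 and 1296.5 in vector. The miR164b and vector values overlapped, and the miR172a mean was 71.3% of the vector mean (log2 -0.48 ± 0.09).

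**Figure D2:**
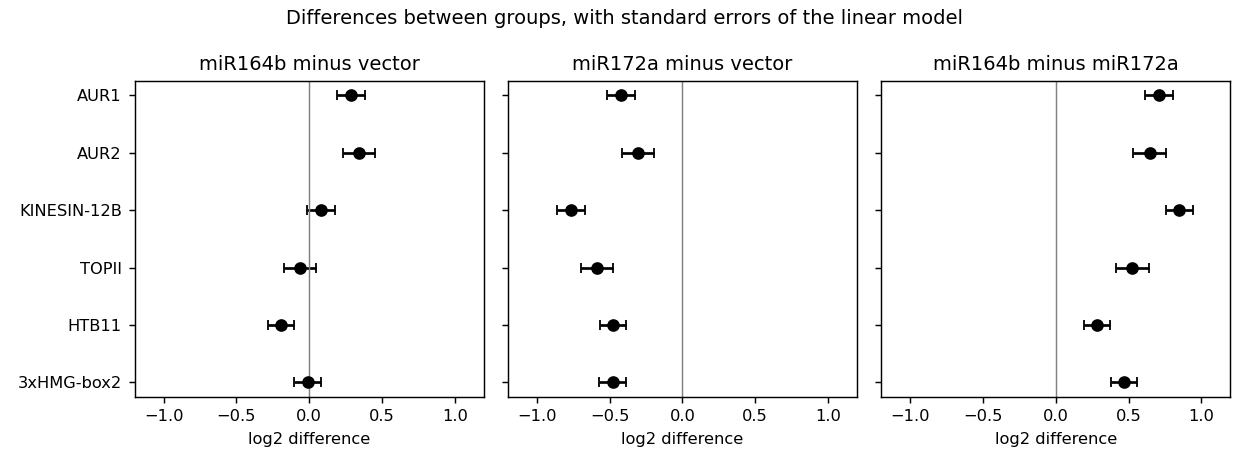
Differences between group means on the log2(intensity + 16) scale for miR164b minus vector, miR172a minus vector and miR164b minus miR172a. Points are estimates of the linear model over all 6 arrays and bars are ± 1 standard error. All 6 genes lie left of 0 in miR172a minus vector and right of 0 in miR164b minus miR172a, and on both sides of 0 in miR164b minus vector.

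The comparison of miR164b with vector was not a contrast from which the genes were chosen, although it shares its arrays with both that were. A choice by the difference between the lines favours a high miR164b level in AUR1 and AUR2. For the others, a choice against vector favours a high vector level. The values of this comparison are therefore also a description, not free of the choice. With limma fitted across all probe sets, 0 of the 6 passed an adjusted p of 0.05, against 1.79% of all probe sets. An unadjusted p under 0.05 was found for 2 of the 6, against 4199 of all 22746 probe sets, and limma-trend called 0, against 4.7%. The kinase genes differed most. The AUR1 level in miR164b exceeded vector by 0.28 on the log2 scale (95% interval 0.05 to 0.52, adjusted p = 0.212), and AUR2 by 0.34 (0.06 to 0.62, adjusted p = 0.2). HTB11 had a log2 difference of -0.19 (-0.41 to 0.03, adjusted p = 0.326). The intervals were -0.15 to 0.32 for KINESIN-12B, -0.34 to 0.22 for TOPII and -0.24 to 0.22 for 3xHMG-box2. The miR164b and vector arrays did not overlap for 4 of the 6 genes, with AUR1 and AUR2 higher and TOPII and HTB11 lower, and such separation held for 51.6% of all probe sets.

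Set directly against miR172a, miR164b was higher for all 6 genes, by a median log2 of 0.59, where the median of all probe sets was -0.06. Both miR164b arrays lay above both miR172a arrays for each of the 6, as they did for 19.4% of all probe sets. Of the 6, 4 had an adjusted p under 0.05, from values that served to choose the genes. Without any one miR164b or miR172a array 0 of the 6 had such a call, and without either vector array 2 had it. Over all probe sets 3.11% were called higher in miR164b and 4.02% lower. That share depends on scaling: 708 probe sets were higher and 915 lower as deposited, but 991 higher and 652 lower with median centring. The difference was largest for KINESIN-12B and the kinases and smallest for HTB11. Both contrasts of miR172a contain its 2 arrays, so they are not separate evidence for each other.

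The 6 profiles over the arrays were not the same. AUR1 and AUR2 correlated at a Pearson r of 0.985, with the same rank order of the 6 arrays, and TOPII and HTB11 at 0.951 (Spearman 0.943), while AUR2 and HTB11 gave the lowest of the 15 pairwise values, at 0.505 (Spearman 0.429). These are descriptions over 6 arrays in 3 groups of 2, and in all 6 genes the miR172a arrays were the lowest. The kinase genes and KINESIN-12B had their highest mean in miR164b, whereas TOPII, HTB11 and 3xHMG-box2 had theirs in vector. The kinase genes were chosen by the difference between the lines and the others against vector, so this split may partly restate the choice. Within groups the replicates did not move together consistently: array 1 read above array 2 for 4 of 6 genes in miR164b, for 3 in miR172a and for 1 in vector.

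The closest measured relatives of the 6 genes were examined next. AUR3 (AT2G45490), the Aurora kinase of the centromere, read 184.0 and 194.6 in miR164b, 137.6 and 110.9 in miR172a, and 174.0 and 175.8 in vector. It was lowest on both miR172a arrays, and its miR164b level exceeded its miR172a level by 0.56 on the log2 scale ± 0.11 (adjusted p = 0.047). That call was lost with only the 4 arrays compared (adjusted p = 0.083). Without single arrays of the lines the difference ran from 0.42 to 0.69. Against vector the miR172a difference was -0.45 ± 0.11 (adjusted p = 0.087).

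Of the other H2B genes, HTB1 fell in miR172a, to 1039.4 and 988.1 against 1322.6 and 1391.5 in vector (log2 -0.42 ± 0.08, adjusted p = 0.048). It too lost its call with only the 4 arrays compared (adjusted p = 0.116). HTB2 read 1199.0 and 1406.3 in miR172a and 1500.7 and 1632.3 in vector (log2 -0.27, adjusted p = 0.285). HTB4 had overlapping values, at 1377.7 and 1801.9 against 1793.1 and 1969.8 (log2 -0.25, adjusted p = 0.387). H2B genes are close copies of one another, so probe sets of the family may share signal.

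3xHMG-box1 read 227.9 and 249.0 in miR172a and 294.9 and 300.1 in vector (log2 -0.30 ± 0.15, adjusted p = 0.322). Its 2 values in miR164b, 219.8 and 298.7, spanned almost the whole range of the 6 arrays. TOP3A, a topoisomerase of another type that cuts a single strand, stood on the other side, at 281.7 and 298.2 in miR172a and 257.2 and 267.4 in vector (log2 0.14 ± 0.11, adjusted p = 0.568).

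Beyond these relatives, 10 lists of cell division and chromatin genes were compared, of which 34 genes other than the 6 were measured under a name. These lists were thinly covered. Measured under a name were 9 of 31 mitotic kinase and spindle checkpoint symbols and 6 of 75 replication symbols. In the list of mitotic cyclins and their kinases it was 1 of 33 symbols, TSO1, which is neither a cyclin nor a kinase gene. The measured kinase and checkpoint genes lay below vector in miR172a, and 5 of the 6 measured replication genes above it, with none of either past the test. In the mitotic kinase and spindle checkpoint list, 7 of 7 other genes, AUR3 among them, had a lower mean in miR172a than in vector. Their median log2 was -0.30, where that of all probe sets was -0.0017. limma called 0 of these 7, 4 had an unadjusted p under 0.05, against 4851 of all 22746 probe sets, and limma-trend called 1, against 9.95%. BUBR1, a gene of the checkpoint that delays anaphase, read 77.4 and 77.1 in miR172a and 134.9 and 101.3 in vector (log2 -0.51 ± 0.13, adjusted p = 0.092). WYR, the INCENP-type partner of Aurora kinases, read 100.3 and 108.8 in miR172a and 142.3 and 146.2 in vector (log2 -0.41 ± 0.11, adjusted p = 0.089). The checkpoint genes BUB3.1 and BUB3.2, the histone H3 kinase gene Haspin and the centromeric histone gene HTR12 had log2 differences between -0.30 and -0.16. Between the lines 7 of 7 were higher in miR164b, AUR3 being the 1 called, against 3.11% of all probe sets called higher. Their median log2 was 0.29, where that of all probe sets was -0.06. The 7 kept these sides with median centring, with quantile normalization and without each single array.

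Replication genes differed in side. Of 6 measured, 5 had a higher mean in miR172a than in vector, 4 without miR172a array 1. Their median log2 was 0.14, where that of all probe sets was -0.0017. limma called 0, against 5.87% of all probe sets. An unadjusted p under 0.05 was found for 1, against 4851 of all 22746, and limma-trend called 1, against 9.95%. POLA3, a primase subunit gene, read 441.4 and 432.7 in miR172a and 349.5 and 349.4 in vector (log2 0.31 ± 0.09, adjusted p = 0.112). Between the lines 6 of 6 were lower in miR164b, and 5 of 6 with median centring, with quantile normalization or without miR172a array 2. Their median log2 was -0.28. All probe sets also leaned to that side, with a median of -0.06 and 58.9% of them below a log2 difference of -0.01. Of these 6, 2 were called, against 4.02% of all probe sets called lower. PRL, the MCM7 subunit gene of the replicative helicase, read 684.8 and 649.5 in miR164b against 1021.1 and 888.6 in miR172a (log2 -0.50 ± 0.10, adjusted p = 0.044). ICU2, the catalytic subunit gene of DNA polymerase alpha, read 159.3 and 174.4 against 244.3 and 222.8 (log2 -0.45 ± 0.09, adjusted p = 0.049). Both calls were lost with median centring and with only the 4 arrays compared, and that of ICU2 with quantile normalization. With only those 4 arrays the adjusted p was 0.075 for PRL and 0.0818 for ICU2.

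**Figure D3:**
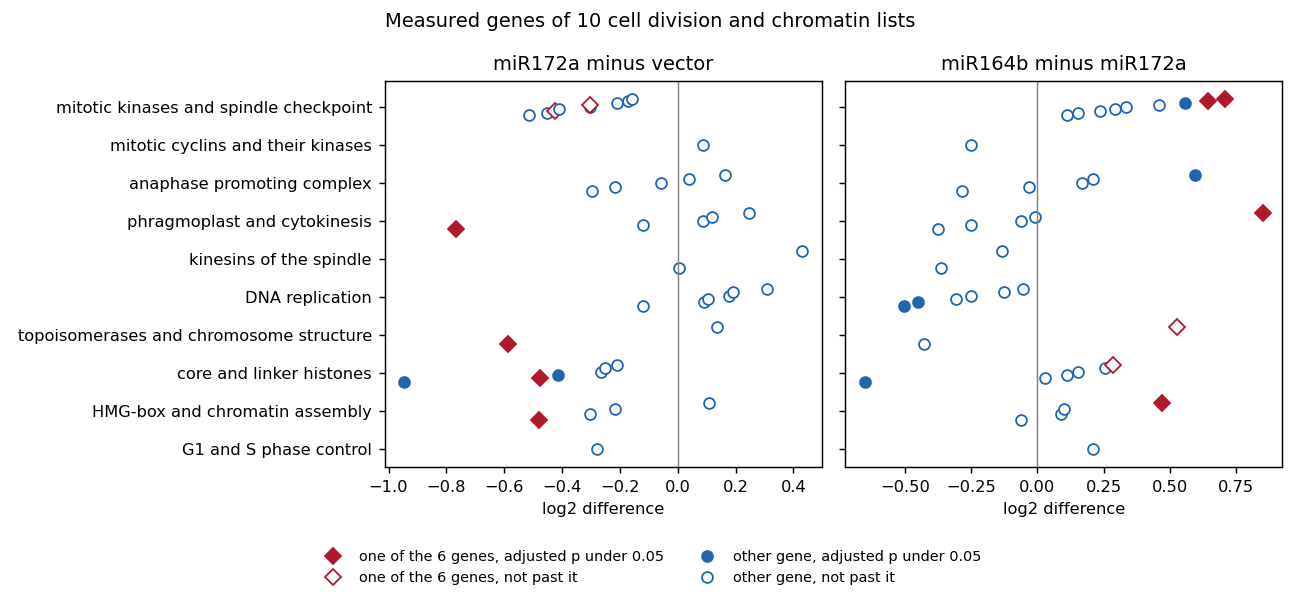
Log2 differences of every measured gene of 10 cell division and chromatin lists, for miR172a minus vector and miR164b minus miR172a. Red diamonds are the 6 genes, blue circles the other list genes, and filled symbols have an adjusted p under 0.05. For the 6 genes, filled symbols restate the choice or share the miR172a arrays with the contrast by which the gene was chosen. Mitotic kinase and checkpoint genes lie left of 0 against vector and right of 0 between the lines, replication genes mostly the reverse.

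The other lists gave few calls. UBC20, a gene of the ubiquitin-conjugating enzymes that work with the anaphase promoting complex, read 557.1 and 586.1 in miR164b, 368.4 and 377.5 in miR172a, and 466.5 and 457.2 in vector. Its groups did not overlap and stood in the order of the AUR1 groups, with a difference between the lines of 0.59 ± 0.08 (adjusted p = 0.016). That call was lost without any one of the miR164b or miR172a arrays (highest adjusted p = 0.125). Its relative UBC19 read 461.6 and 454 in miR164b, 403.1 and 407.5 in miR172a, and 383.1 and 338.5 in vector. Between the lines UBC19 stood on the same side as UBC20 (log2 0.17, adjusted p = 0.34). For miR172a against vector the sides differed, at log2 0.16 for UBC19 (adjusted p = 0.381) and -0.30 for UBC20 (adjusted p = 0.101). The linker histone gene HIS1-3, known for induction by drought rather than division, fell in both lines, to 113.1 and 103.3 in miR164b and 166.8 and 191.1 in miR172a, against 363.2 and 353.9 in vector (log2 -1.59 and -0.94, adjusted p = 0.0037 and 0.011). Its call was lost without either miR164b array in miR164b (highest adjusted p = 0.071) and without any one miR172a or vector array in miR172a (highest adjusted p = 0.067).

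Of the phragmoplast list 5 of 56 symbols were measured under a name, KINESIN-12B among them, and the others did not follow KINESIN-12B. Of its 4 other measured genes, KEU, ATMAP65-6, TON1B and TPLATE, 3 had a higher and 1 a lower mean in miR172a than in vector, with log2 differences from -0.12 to 0.25. limma called 0 of them, 0 had an unadjusted p under 0.05 and limma-trend called 0. The 2 measured kinesin genes of the spindle list, KINESIN-13A and KICP-02, had log2 differences of 0.00 and 0.43 (adjusted p = 0.987 and 0.064). The single measured genes of the mitotic cyclin and G1 lists, TSO1 and SIM, had differences of 0.09 and -0.28 (adjusted p = 0.687 and 0.121). In the list of the anaphase promoting complex 2 of 5 genes had a higher and 3 a lower mean in miR172a than in vector. The histone chaperone genes SGA2 and ASF1B had differences of 0.11 and -0.22 (adjusted p = 0.55 and 0.348). Over the 34 genes, limma called 2 lower and 0 higher in miR172a against vector, with 10 at an unadjusted p under 0.05 and 6 called by limma-trend, and their median log2 was -0.12. All probe sets had a called share of 5.87% in that contrast, close to that of the 34 genes, and one of 9.95% with limma-trend, and 4851 of the 22746 had an unadjusted p under 0.05. Between the lines limma called 2 of the 34 higher and 3 lower in miR164b, against 3.11% and 4.02% of all probe sets. There 18 of the 34 had an unadjusted p under 0.05, against 5411 of the 22746. limma-trend called 11 of the 34, against 2724 of all probe sets.

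Genes with the most similar profile were sought among 2171 other named genes with a mean intensity of at least 50 and a range of at least 0.5 on the log2 scale. The measure was the Pearson correlation over the 6 arrays with the mean standardised profile of the 6 genes, which stood at -1.23 and -1.14 SD on the arrays labelled miR172a. The 8 most alike were AT3G12930, Fes1B, AT1G64370, AT4G30650, AT4G33980, AT3G01750, UF3GT and AT1G23790, all with r of 0.994 or above. None of these 8 belonged to the division lists. At most 34 list genes other than the 6 could stand among the 2171, so an absence from the 8 carries no weight. AT3G12930 read 725.6 and 706.8 in miR164b, 461.1 and 469.4 in miR172a, and 663.6 and 693.0 in vector. Fes1B, of the Hsp70 co-chaperone family, read 286.0 and 277.7 in miR164b, 145.1 and 149.4 in miR172a, and 268.5 and 268.8 in vector. UF3GT, a glycosyltransferase gene of anthocyanin synthesis, had a wider range, with 207.0 and 210.8 in miR164b, 47.3 and 39.7 in miR172a and 177.5 and 196.3 in vector. For single genes the nearest profiles were AT3G15720 for AUR1 (r = 0.993), AT4G19380 for AUR2 (0.997), AT1G64370 for KINESIN-12B (0.995), AT2G30620 for TOPII (0.995), AT4G33540 for HTB11 (0.996) and UGT85A2 for 3xHMG-box2 (0.993). AT5G59500 was among the 3 nearest of both AUR1 and AUR2. An r of 0.9 or above was reached by 214 of the 2171 genes.

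**Figure D4:**
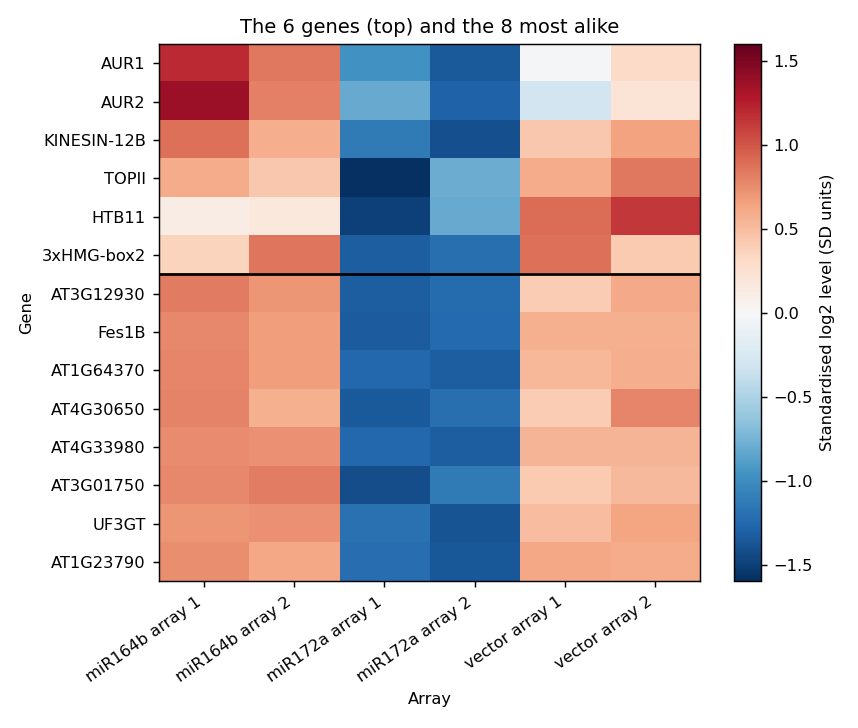
Standardised log2 level (SD units, colour) of the 6 genes above the line and of the 8 most similar named genes below it, on the 6 arrays. The 2 miR172a columns are the lowest in every row, and AUR1 and AUR2 differ from the other rows in near-average levels on vector array 1.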

How the data were processed

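The authors deposited 1 linear intensity per probe set and array, 22810 in all. The labels name no software, and how probe values were summarised and scaled is not stated in them. The mean without the lowest and highest 2% was 200 on each array. The number of arrays limits the precision. Leaving out 64 control probe sets left 22746, of which 13513 paired with 1 gene, 503 with several and 8730 were not listed in the annotation. Names follow the TAIR10.1 gene table, and the brightest probe set stood for a gene.

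Values were analysed as log2(intensity + 16), so changes of dim probe sets are understated, with limma 3.58.1 (lmFit and eBayes) in R 4.3.3. The fit had 1 mean per group, all 6 arrays, 3 residual and 2.69 prior degrees of freedom, and two-sided p-values adjusted by Benjamini-Hochberg over all tested probe sets of a contrast. The method was tested on simulated data. An exact permutation test of 2 against 2 arrays cannot go below p = 0.333. Differences between means are given ± standard errors, from this model. Figures used matplotlib 3.10.9.

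The members and the gene lists were chosen with earlier results of these data known. List symbols were matched to current symbols, then to unique synonyms. BRK1 was left out because the gene table gives this symbol to another gene. Genes named were the 6, their measured family members, list genes past the threshold with the smallest p (at most 4 per list), and the most similar profiles. BUBR1, WYR, POLA3, UBC19 and the remaining list genes were named after their values were seen. A planned search of promoter motifs was not made, as no sequence was used here.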

Additional observations from a re-analysis of the deposited data

How the results depend on the processing

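The 6 genes stayed below vector in miR172a and above miR172a in miR164b in all 14 alternatives. Selection fixes the side against vector for KINESIN-12B, TOPII, HTB11 and 3xHMG-box2, and between the lines for AUR1 and AUR2. The remaining sides share the miR172a arrays with the choice and are not free of it. Of the 6, between 0 and 5 were called in miR172a against vector and between 0 and 6 between the lines. Against vector 0 were called without any one array and with only the 4 arrays compared. Between the lines 0 were called without any one miR164b or miR172a array and 2 without either vector array. KINESIN-12B ranged from -0.86 with an offset of 1 to -0.57 with an offset of 64 against vector. For 3xHMG-box2 the sign in miR164b against vector turned with median centring (0.035), and single-array omissions gave -0.074 to 0.052, positive without vector array 1 and without miR164b array 1, never past the threshold. Over all probe sets the 407 calls in miR164b against vector became 103 and 916 with offsets of 1 and 64, 1136 without the 40% dimmest, 1068 with limma-trend, 144 with only the 4 arrays compared and 9 to 144 without single arrays. The 1336 calls in miR172a against vector became 406, 2241, 2398, 2263, 359 and 111 to 359 under the same settings. The 1623 calls between the lines became 683, 2707, 2970, 2724, 1018 and 102 to 1018. Leaving out an array of the group outside a contrast gave the counts of the 4 arrays compared, 144, 359 and 1018. The median log2 difference was then unchanged, since such an array enters only the estimate of spread. Others of these settings leave out samples of the contrast or probe sets, and the cause of the changed counts there was not tested. With the letter of the sample title as a replicate block the counts were 186, 795 and 1104, and 0, 1 and 2 of the 6 genes were called. The letters are not said to pair samples, and deviations of equal letters correlated at -0.011, 0.105 and 0.0787. The alternatives for the other list genes were added after seeing the data. No alternative with another probe set could be run, since each of the 6 genes has 1. Calls near the threshold, on groups of 2, are limited by the number of arrays.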
